A study of Mus musculus with 20 samples.

Results

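Among the genes that mouse embryonic stem (ES) cells express, 55 were low in embryoid bodies (EB) of both wild type cells and cells without the histone chaperone CAF-1. EB are the aggregates in which ES cells differentiate. The genes were chosen by the FPKM values themselves (fragments scaled to transcript length and to the size of the library). All 4 ES libraries had to reach 10 FPKM, the wild type EB mean could be at most 0.25 times the wild type ES mean, and the knockout EB mean at most 0.33 times the knockout ES mean. Of 53440 genes and loci with 1 entry per symbol, 6055 met the ES minimum and 357 of these met the wild type limit. The 55 genes are 15.4% of those 357, and the other 302, which met the wild type limit only, serve as the comparison set. The difference between EB and ES in either genotype is therefore a description of how the genes were selected, and it was not tested.

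All cells were TL1 mouse cells. The 4 groups were wild type ES and knockout ES, grown with serum and LIF, and wild type EB and knockout EB, grown in the same medium without LIF. The knockout removes p150, the large CAF-1 subunit encoded by Chaf1a, by CRISPR/Cas9, and the number of clones behind it is not given in the sources used here. RNA-seq had 2 libraries per group, and ChIP-seq of the histone marks H3K27me3 and H3K4me3 had 1 library per group and mark. Whether both RNA libraries of a group came from separate cultures is not stated, so p-values measure the spread between libraries, which may be technical.

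CAF-1 places new histones H3 and H4 on DNA behind the replication fork. LIF signals through JAK kinases and STAT3 to keep naive pluripotency genes on in mouse ES cells, and its withdrawal starts their decline. Genes that are switched off during differentiation often gain H3K27me3, laid down by Polycomb repressive complex 2 (PRC2), and lose H3K4me3, a mark of active promoters.

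Chaf1a was between 31.6 and 48.1 FPKM in knockout and between 31.7 and 49.5 FPKM in wild type libraries, and gene-level FPKM cannot show a small lesion, so the genotype rests on the labels. FPKM totals per library ran from 641692 to 781913, and the read counts behind them are not given, so sequencing depth is unknown. The summed FPKM of 10 ES cell markers, all of them in the comparison set, was 302 and 552 (wild type) against 7931 and 5630 (knockout) in EB, against 6062 to 6773 in the ES libraries. Such a sum weights high markers most. Over the 10 markers, the median share of the ES level left in EB was 4.96% in wild type and 67.3% in knockout. Summed markers of other cell types were lower in knockout EB than in wild type EB: 54.9 and 137 against 1338 and 1347 for 15 fibroblast markers, 72.8 and 176 against 457 and 491 for 12 endoderm markers, 76.7 and 104 against 2825 and 750 for 12 blood and endothelium markers, 30.0 and 280 against 4706 and 3431 for 10 cardiomyocyte markers, and 9.09 and 17.0 against 72.3 and 84.1 for 9 neural markers. In such bulk samples, fewer cells of a type and less RNA per cell cannot be told apart, and the part of cell composition in the results below was not tested.

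Promoter sequences show what kind of genes these are. RefSeq start sites (GRCm38.p6, from 250 bases before to 50 after the start) were matched by symbol for 40 of the 55 genes. Only the first listed start of each symbol was used, and 5826 further ones over all symbols were left out. A window may therefore not be that of the start used in ES cells. The density of CG pairs was measured as the observed number over the number expected from the C and G content. This ratio was 0.6 or more in 23 of the 40 promoters (57.5%), against 52% of 198 promoters in the comparison set, 83.2% of 4453 promoters of expressed ES genes and 36.5% of all 27025 promoters. It was under 0.4 in 13 of 40 (32.5%), against 31.3%, 6.67% and 51%. CG-poor promoters thus made up about the same share of the 55 genes and of the comparison set, and a larger share than among expressed ES genes. The 6 promoters below have every CG pair in capitals. They are 3 of regulators that gained H3K27me3 in EB and 3 of genes without a 2-fold gain once 1 was added to the signal, as given further on. Klf4 lies at chr4:55532426-55532725 (minus strand), Socs3 at chr11:117969317-117969616 (minus), Foxd3 at chr4:99656049-99656348 (plus), Rpl10l at chr12:66284352-66284651 (minus), Tex19.1 at chr11:121145893-121146192 (plus) and Gng3 at chr19:8839197-8839496 (minus).
Klf4: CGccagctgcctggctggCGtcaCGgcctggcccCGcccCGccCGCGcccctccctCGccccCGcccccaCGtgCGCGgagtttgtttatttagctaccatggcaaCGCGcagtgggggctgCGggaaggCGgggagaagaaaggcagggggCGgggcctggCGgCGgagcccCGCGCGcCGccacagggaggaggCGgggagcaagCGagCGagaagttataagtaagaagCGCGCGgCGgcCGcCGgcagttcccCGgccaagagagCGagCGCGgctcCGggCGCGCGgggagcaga
Socs3: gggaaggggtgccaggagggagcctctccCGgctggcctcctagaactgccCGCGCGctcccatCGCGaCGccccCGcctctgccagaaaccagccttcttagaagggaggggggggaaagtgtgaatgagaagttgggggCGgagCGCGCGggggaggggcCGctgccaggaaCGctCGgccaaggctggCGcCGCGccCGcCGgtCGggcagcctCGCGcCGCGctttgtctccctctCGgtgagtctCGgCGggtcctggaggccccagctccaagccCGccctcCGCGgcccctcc
Foxd3: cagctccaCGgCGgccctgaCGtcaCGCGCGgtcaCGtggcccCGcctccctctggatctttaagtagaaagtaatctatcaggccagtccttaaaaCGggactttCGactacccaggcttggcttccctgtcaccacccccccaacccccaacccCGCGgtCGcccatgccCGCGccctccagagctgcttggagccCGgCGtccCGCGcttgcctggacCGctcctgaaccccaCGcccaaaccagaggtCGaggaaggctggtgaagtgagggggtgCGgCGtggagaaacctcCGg
Rpl10l: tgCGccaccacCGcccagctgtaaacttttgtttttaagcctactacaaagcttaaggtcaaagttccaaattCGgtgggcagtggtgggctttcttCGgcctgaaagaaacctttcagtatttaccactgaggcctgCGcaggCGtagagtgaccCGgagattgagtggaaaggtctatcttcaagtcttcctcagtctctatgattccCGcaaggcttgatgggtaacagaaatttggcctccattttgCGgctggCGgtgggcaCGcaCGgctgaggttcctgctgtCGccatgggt
Tex19.1: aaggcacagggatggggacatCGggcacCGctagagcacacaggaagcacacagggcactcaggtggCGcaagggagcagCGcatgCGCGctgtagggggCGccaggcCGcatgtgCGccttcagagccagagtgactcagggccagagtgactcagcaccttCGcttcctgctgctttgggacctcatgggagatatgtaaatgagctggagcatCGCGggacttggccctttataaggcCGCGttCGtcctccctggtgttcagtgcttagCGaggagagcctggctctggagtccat
Gng3: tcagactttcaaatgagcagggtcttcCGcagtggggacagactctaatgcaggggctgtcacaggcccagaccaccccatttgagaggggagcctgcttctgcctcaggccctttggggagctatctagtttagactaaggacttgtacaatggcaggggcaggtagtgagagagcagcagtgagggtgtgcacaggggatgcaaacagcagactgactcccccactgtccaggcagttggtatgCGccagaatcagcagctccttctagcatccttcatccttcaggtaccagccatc
The Klf4, Socs3 and Foxd3 promoters hold 40, 31 and 25 CG pairs. Those of Rpl10l and Tex19.1 hold 13 and 16, and that of Gng3 holds 2. The STAT motif TTCCNGGAA, searched on both strands, was found in the promoter of 1 of the 40 genes, Icam1, and in 1.15% of all promoters. It was not in these windows of Klf4 or Socs3. The octamer ATGCAAAT was also in 1 of 40 (Prx) and in 1.75% of all promoters, and the TATA motif TATAAA was in 8 of 40 (20%), against 8.08% in the comparison set, 6.11% of expressed ES genes and 14.2% of all promoters.

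Across the 55 genes, the share of the ES level left in EB had a median of 7.18% in wild type (from 0.590% to 24.1%) and of 22.7% in knockout (from 5.15% to 33%). These values chose the genes. In the comparison set the medians were 13.0% and 66.8%. All 4 EB libraries lay below all 4 ES libraries for each of the 55 genes, and 32 of them also met the 0.25 limit in knockout. The share left was larger in knockout for 52 genes, and smaller for Mras, Gli1 and Pcdhgc4. Summed over the 55 genes, FPKM was 257 and 330 (wild type) against 830 and 743 (knockout) in EB, against 3327 to 3892 in the ES libraries. The genes closest to the knockout limit were Eprn (0.33), Vwa3b (0.328), Brca2 (0.327) and Notum (0.324) on the inside, and Fam25c (0.336), Crybg2 (0.340), Tuba4a (0.340) and Cabp1 (0.342) on the outside. At the wild type limit they were Brca2 (0.241), Prx (0.236), Dusp27 (0.227) and Gli1 (0.225) on the inside, and Crmp1 (0.251), an unnamed model (0.254), Nfu1 (0.281) and Mllt6 (0.298) on the outside. At the ES minimum, the lowest library was 10.7 FPKM in Trib3, 10.9 in Pcdhgc4, 11.2 in Sdr39u1 and 11.6 in Prx, and 9.90 in Krt17, 9.75 in Halr1, 9.21 in Plekha4 and 9.13 in Sap25, which were left out.

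**Figure D1:**
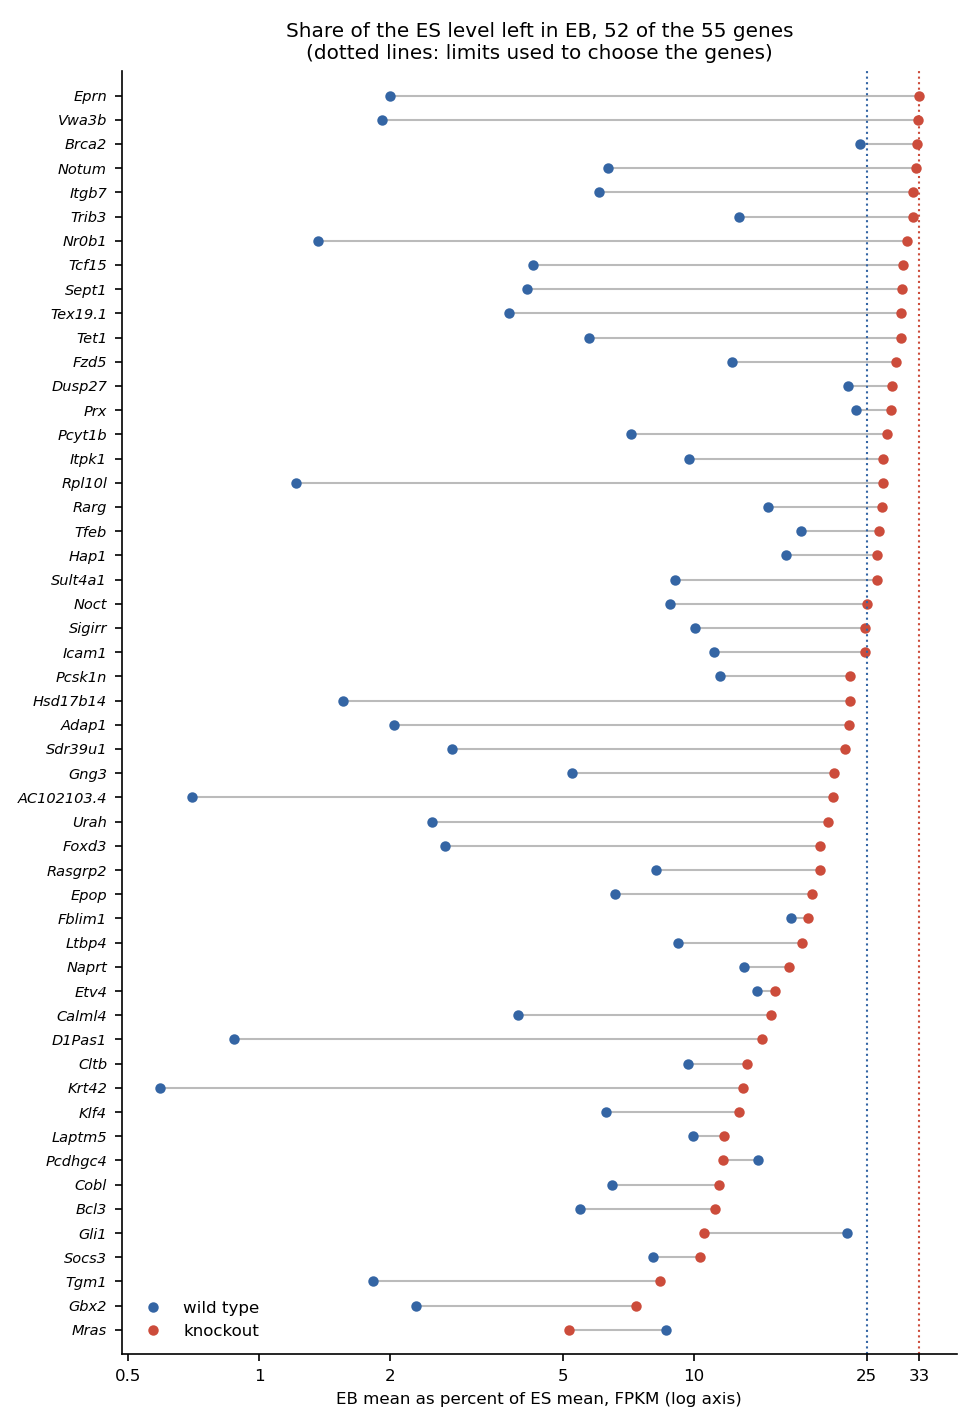
EB mean as a percentage of the ES mean (FPKM, log axis) for 52 of the 55 genes, in wild type (blue) and knockout (red), sorted by the knockout value. Dotted lines mark the 25 and 33 percent limits that chose the genes, and the red point is left of the blue one only for Mras, Gli1 and Pcdhgc4.

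Setting knockout EB beside wild type EB asks how far levels differed between genotypes among genes low in both. The limma test over all genes called 40 of the 55 higher in knockout EB and 3 lower, and 12 were not called. Over all 15428 genes tested, 20.0% were called higher and 25.9% lower. The median difference of the 55 genes was 1.24 on the log2(FPKM + 1) scale, against -0.06 over all genes and 2.22 in the comparison set, of which 297 of 302 were called higher. The rule used the same EB values, and its looser knockout limit favours knockout above wild type. In the comparison set, knockout EB had to stay above the limit that wild type EB met, which all but fixes that direction. These counts and medians therefore describe the choice of genes and support nothing beyond it. Single-gene EB differences and p-values below are of genes chosen by the same EB values and carry the same limit. Counts over the gene lists below carry it as far as they hold such genes, and are to be read beside the 20.0% and 25.9%. Both knockout libraries lay above both wild type libraries for 42 genes and below them for 4, and the libraries overlapped for 9. This was not counted over all genes, so it shows nothing particular to the 55. Leaving out EB wild type replicate 1 gave the fewest higher calls, 30. Without EB wild type replicate 2 there were 37 higher and 0 lower calls.

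**Figure D2:**
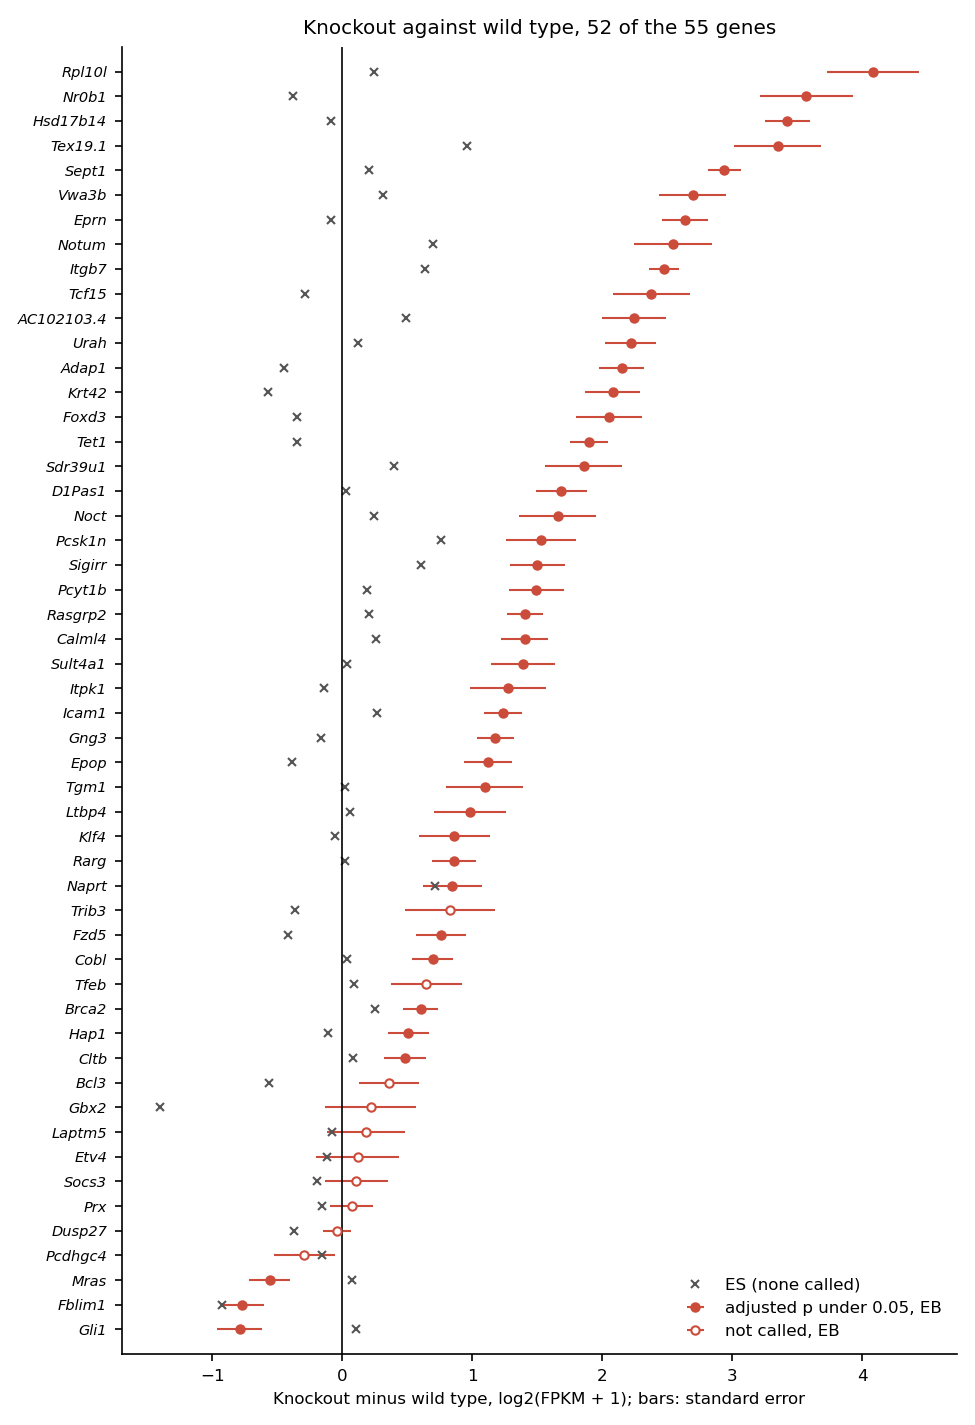
Knockout minus wild type on the log2(FPKM + 1) scale for 52 of the 55 genes, in EB (circles with standard errors, filled where the adjusted p was under 0.05) and in ES (crosses). EB differences run from -0.79 (Gli1) to 4.09 (Rpl10l), and no ES difference was called.

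From a list of 22 genes of LIF and STAT3 signalling, 17 met the ES minimum. Of these, 4 are among the 55 genes (Klf4, Socs3, Bcl3 and Gbx2), 5 met the wild type limit only (Klf5, Pim3, Spp1, Tbx3 and Tfcp2l1) and 8 met neither. In knockout EB, 8 of the 22 were called higher and 3 lower, with a median of 0.10. Socs3, the feedback inhibitor of JAK and STAT signalling (chromosome 11, 117966079 to 117970047, mm10), measured 89.4 and 85.7 FPKM (wild type) against 77.5 and 74.8 (knockout) in ES. It measured 5.99 and 8.10 FPKM (wild type) against 10.1 and 5.64 (knockout) in EB. The EB libraries overlapped, and the difference of 0.11 ± 0.24 (SE) did not pass the test (limma, adjusted p = 0.748). Bcl3, a nuclear regulator of NF-kappaB, measured 62.2 and 50.7 FPKM (wild type) against 44.3 and 32.0 (knockout) in ES, then 2.66 and 3.51 (wild type) against 5.10 and 3.44 (knockout) in EB. Its libraries also overlapped in EB, with a difference of 0.36 ± 0.23 (adjusted p = 0.247).

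Gbx2, a homeobox factor of the naive state, had the lowest EB levels of these 4 and the largest ES difference between genotypes among the 55. It measured 53.5 and 66.6 FPKM (wild type) against 32.3 and 14.8 (knockout) in ES, a difference of -1.41 ± 0.35 that was not called (limma, adjusted p = 0.139). In EB it measured 1.78 and 0.985 FPKM (wild type) against 1.77 and 1.69 (knockout), a difference of 0.22 ± 0.35 (adjusted p = 0.643). Klf4, a zinc finger factor that supports naive pluripotency (chromosome 4, 55527143 to 55532466), measured 129 and 107 FPKM (wild type) against 124 and 102 (knockout) in ES, then 5.74 and 9.06 (wild type) against 17.9 and 10.9 (knockout) in EB. Both knockout EB libraries were above both wild type ones, and Klf4 was called higher by 0.86 ± 0.27 (adjusted p = 0.0369). Dropping any of 5 libraries removed the call: EB knockout replicate 1 (0.204), EB wild type replicate 1 (0.194), wild type ES replicates 1 (0.0526) and 2 (0.0523), or knockout ES replicate 1 (0.0500036), and over all alternatives the adjusted p reached 0.204 at most. For comparison, the STAT3-responsive factors Klf5 and Tfcp2l1 of the comparison set were called higher by 2.72 and 2.44, and Stat3 itself was called lower by 0.53 (adjusted p = 0.0188).

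**Figure D3:**
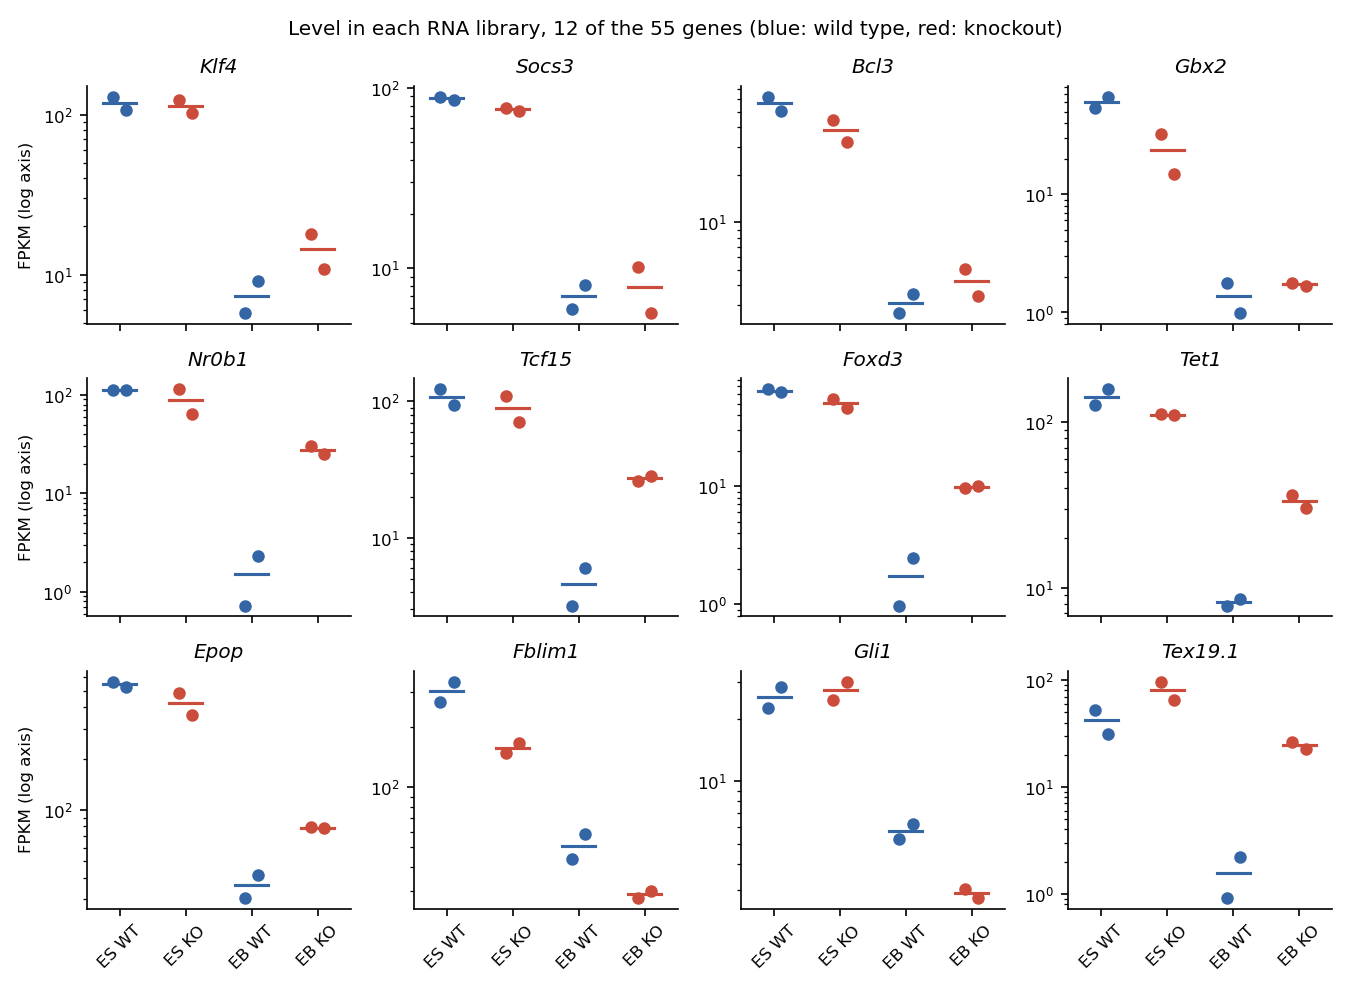
FPKM (log axis) of 12 of the 55 genes in each of the 8 RNA libraries, with wild type in blue, knockout in red and a bar at each group mean of 2 libraries. All EB points lie below all ES points, while the EB points of the genotypes overlap for Socs3, Bcl3 and Gbx2 and are apart for the other 9 genes.

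Genes of a naive pluripotency list, which holds transcription factors, ligands and other ES cell genes, were mostly outside these 55 genes. Of 35 listed genes, 34 met the ES minimum, 5 are among the 55 and 25 are in the comparison set. In knockout EB 33 of the 35 were called higher and 1 lower, with a median of 2.90, against 20.0% and 25.9% called over all genes. The rule that sorted the 5 and the 25 used the same EB values, so this count supports nothing beyond that choice. Besides Klf4 and Gbx2 the members are Nr0b1, Tcf15 and Foxd3. Nr0b1, an orphan nuclear receptor also known as Dax1 (chromosome X, 86191764 to 86195947), measured 112 and 112 FPKM (wild type) against 115 and 63.7 (knockout) in ES, then 0.725 and 2.33 (wild type) against 30.4 and 24.9 (knockout) in EB. Its knockout EB level was thus far above wild type EB, by 3.57 ± 0.36 (limma, adjusted p = 0.000660), and still at 31.0% of knockout ES.

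Tcf15, a basic helix-loop-helix factor, measured 123 and 93.6 FPKM (wild type) against 109 and 70.1 (knockout) in ES, then 3.19 and 6.03 (wild type) against 26.0 and 28.5 (knockout) in EB. Foxd3, a forkhead repressor (chromosome 4, 99656299 to 99658622), measured 66.4 and 62.5 FPKM (wild type) against 54.9 and 46.0 (knockout) in ES, then 0.972 and 2.48 (wild type) against 9.65 and 10.1 (knockout) in EB. Neither gene's EB libraries overlapped between genotypes. Tcf15 was called higher by 2.38 ± 0.30 (limma, adjusted p = 0.00130) and Foxd3 by 2.05 ± 0.25 (adjusted p = 0.00124), and both kept the call under every alternative run.

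Chromatin regulators were represented by Epop and Tet1. Epop, which links PRC2 to the elongin complex (chromosome 11, 97627389 to 97629702), had the highest ES level of the 55 genes, at 567 and 528 FPKM (wild type) against 484 and 360 (knockout). In EB it measured 30.5 and 41.7 FPKM (wild type) against 79.3 and 78.3 (knockout). Tet1, which oxidises methylated cytosine (chromosome 10, 62804570 to 62908996), measured 127 and 158 FPKM (wild type) against 112 and 111 (knockout) in ES, then 7.80 and 8.57 (wild type) against 36.5 and 30.2 (knockout) in EB. Both genes were higher in both knockout EB libraries than in either wild type one. Epop was called higher by 1.12 ± 0.18 (limma, adjusted p = 0.00318) and Tet1 by 1.90 ± 0.14 (adjusted p = 0.000323). Of the 33 PRC1 and PRC2 genes tested, 14 were called higher and 8 lower, and Epop was the only one of the 20 above the ES minimum that is among the 55.

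Signalling components of other pathways went both ways. Rarg, the gamma retinoic acid receptor, measured 12.7 and 12.5 FPKM (wild type) against 22.9 and 24.5 (knockout) in EB, from 72.4 to 102 in ES. It was called higher by 0.86 ± 0.17 (limma, adjusted p = 0.00648). Fzd5, a Wnt receptor, measured 5.36 and 8.12 FPKM (wild type) against 10.9 and 13.0 (knockout) in EB, a called difference of 0.76 ± 0.19 (adjusted p = 0.0167) that ended without EB knockout replicate 2 (0.0838) or EB wild type replicate 1 (0.0763). Notum, a secreted enzyme that inactivates Wnt proteins, measured 0.830 and 2.41 FPKM (wild type) against 15.9 and 11.6 (knockout) in EB, and was called higher by 2.54 ± 0.30 (adjusted p = 0.00107). Fzd5 and Notum are 2 of the 7 Wnt genes of a list of 26 that met the ES minimum, and of the 24 listed genes tested 7 were called higher and 7 lower in knockout EB. Rasgrp2, an exchange factor for Rap and Ras GTPases, measured 13.4 and 16.6 FPKM (wild type) against 41.9 and 40.6 (knockout) in EB and was called higher by 1.40 ± 0.14.

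Etv4, an ETS factor downstream of FGF, was the 1 of 12 FGF and ERK genes above the ES minimum that is among the 55. It measured 77.3 and 72.2 FPKM (wild type) against 99.0 and 47.6 (knockout) in ES, and then 8.57 and 12.3 (wild type) against 12.03 and 10.5 (knockout) in EB. The EB libraries overlapped, and the difference was 0.12 ± 0.32 (limma, adjusted p = 0.796). Trib3, a stress-induced pseudokinase, measured 3.02 and 2.42 FPKM (wild type) against 5.78 and 5.40 (knockout) in EB. Its libraries did not overlap, and its difference of 0.83 ± 0.35 was not called (adjusted p = 0.0892) but was called without ES knockout replicate 1 (0.0156) or replicate 2 (0.0165).

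Only 3 genes were called lower in knockout EB than in wild type EB. Gli1, the transcription factor and target of Hedgehog signalling (chromosome 10, 127329882 to 127341974), measured 22.5 and 28.4 FPKM (wild type) against 24.6 and 30.2 (knockout) in ES, then 5.27 and 6.19 (wild type) against 3.04 and 2.74 (knockout) in EB. Its locus overlaps that of Arhgap9, so reads of both may be mixed. The difference was -0.79 ± 0.17 (limma, adjusted p = 0.00974), which ended as a call without EB wild type replicate 2 (0.0627). Mras, a Ras-related GTPase (chromosome 9, 99385420 to 99437381), measured 61.3 and 66.0 FPKM (wild type) against 68.9 and 65.5 (knockout) in ES, then 5.58 and 5.44 (wild type) against 4.13 and 2.79 (knockout) in EB. Its difference was -0.56 ± 0.16 (adjusted p = 0.0243). Mras was no longer called without EB knockout replicate 2 (0.0859) or without wild type EB replicate 1 (0.0942) or 2 (0.0853), and over all alternatives its adjusted p reached 0.167.

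The third, Fblim1, a LIM protein of cell adhesions that binds filamin (chromosome 4, 141576062 to 141606096), was lower in knockout at both stages. It had 268 and 340 FPKM in wild type ES against 150 and 167 in knockout ES, and 43.5 and 58.0 in wild type EB against 27.8 and 30.2 in knockout EB. The libraries of the genotypes did not overlap at either stage. The difference was -0.77 ± 0.17 in EB (limma, adjusted p = 0.00988) and -0.93 ± 0.17 in ES, where it was not called (adjusted p = 0.0884). The EB call ended without EB knockout replicate 1 (0.0641) or EB wild type replicate 2 (0.0551). As shares of the ES level, 16.7% was left in wild type and 18.3% in knockout.

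Icam1 and Itgb7 are the 2 of 20 listed adhesion and epithelium genes above the ES minimum that are among the 55. Of the 35 listed genes tested, 12 were called higher and 7 lower in knockout EB, with a median of -0.03. Ltbp4, which binds latent TGF-beta, measured 8.12 and 14.2 FPKM (wild type) against 26.0 and 19.19 (knockout) in EB. It was called higher by 0.98 ± 0.28 (limma, adjusted p = 0.0248). Dropping EB knockout replicate 1 (0.145) or EB wild type replicate 1 (0.125) removed the call. Icam1, a leukocyte adhesion receptor, measured 4.17 and 4.57 FPKM (wild type) against 13.4 and 10.1 (knockout) in EB, and Itgb7, the beta 7 integrin, had 1.58 and 1.68 against 13.7 and 13.6. Both were called, by 1.24 ± 0.15 and 2.48 ± 0.11. Itgb7 lies 2.99 kb from Rarg on chromosome 15 with 0 expressed ES genes between them, the closest pair among the 55. Tgm1, a transglutaminase of the epidermis, measured 0.482 and 0.559 FPKM (wild type) against 3.501 and 1.34 (knockout) in EB. Its call (1.09 ± 0.29, adjusted p = 0.0208) was lost without EB knockout replicate 1 (0.0608), and without wild type EB replicate 1 (0.0898) or 2 (0.0792).

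On the log2(FPKM + 1) scale, the largest EB differences between the genotypes were those of Rpl10l, Nr0b1, Hsd17b14, Tex19.1 and Sept1. As a ratio of mean FPKM, which weights low levels more, 1 unnamed model among the 55 was highest at 44.0-fold, and D1Pas1 (16.7-fold) and Krt42 (14.7-fold) were above Hsd17b14 (13.8-fold) and Sept1 (8.41-fold). Rpl10l, a retrogene copy of a ribosomal protein gene active in the male germline, measured 175 and 114 FPKM (wild type) against 175 and 159 (knockout) in ES, then 0.993 and 2.52 (wild type) against 57.5 and 33.6 (knockout) in EB. Tex19.1, a germline gene that restrains retrotransposons, measured 52.2 and 31.5 FPKM (wild type) against 96.8 and 65.7 (knockout) in ES, then 0.914 and 2.23 (wild type) against 26.4 and 22.4 (knockout) in EB. Both were far apart in EB, with differences of 4.09 ± 0.35 (limma, adjusted p = 0.000440) for Rpl10l and 3.35 ± 0.33 (adjusted p = 0.000658) for Tex19.1. Rpl10l resembles its parent gene closely, and the counting may split reads between copies, so its level is uncertain. Hsd17b14, a steroid dehydrogenase, measured 2.31 and 3.65 FPKM (wild type) against 39.1 and 43.2 (knockout) in EB (3.42 ± 0.17), and Sept1, a septin, had 9.55 and 7.72 against 73.1 and 72.1 (2.94 ± 0.13). The locus of Sept1 overlaps that of Zfp553. Vwa3b and the long non-coding RNA Eprn were at 0.253 to 0.661 FPKM (wild type) and at 7.40 to 10.4 (knockout) in EB, with differences of 2.70 and 2.64. Brca2, a homologous recombination factor, had a smaller called difference of 0.60 ± 0.13 (4.71 and 5.08 against 7.29 and 8.66 FPKM), which ended without EB wild type replicate 1 (adjusted p = 0.0533).

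Further members called higher in knockout EB were Adap1, Calml4, Cltb, Cobl, D1Pas1, Gng3, Hap1, Itpk1, Krt42, Naprt, Noct, Pcsk1n, Pcyt1b, Sdr39u1, Sigirr, Sult4a1, Urah and that unnamed model. Laptm5, Prx, Dusp27, Tfeb and Pcdhgc4 were not called. Among these genes, the loci of Gng3, Naprt, Pcsk1n, Sdr39u1 and Pcdhgc4 overlap another gene model, as do those of Bcl3, Gbx2 and Notum described above, and D1Pas1 is a testis copy of an X-linked helicase gene, so their levels may hold reads of other genes.

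In ES cells, none of the 55 genes was called between knockout and wild type by limma. At an unadjusted p under 0.05 there were 6 higher and 8 lower. At the adjusted threshold, 0.421% of all genes tested were called higher and 0.0778% lower. The median difference of the 55 genes was 0.03, against 0.02 over all genes. The libraries overlapped for 26 genes, both knockout libraries were above both wild type libraries for 14 and below them for 15. Neither these counts nor those at an unadjusted p were set beside all genes, so they show nothing particular to the 55. The largest difference was that of Gbx2, and Itgb7 had the smallest adjusted p, with 26.7 and 27.3 FPKM (wild type) against 44.2 and 40.9 (knockout) (0.64 ± 0.11, adjusted p = 0.0833).

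The rule used RNA only, so the ChIP-seq values did not enter it. They come from the same 4 groups, and for genes chosen by RNA they are a description and no independent support. With 1 library per group there is no test, and ratios compare the same gene between libraries as log2 of the deposited signal with 1 added. The signal rises with gene length (with a rank correlation over genes between 0.43 and 0.69) and is not compared between genes. H3K27me3 values were matched for 51 of the 55 genes and H3K4me3 values for 52. Median H3K27me3 over the 51 genes was 1.09 (wild type) against 1.17 (knockout) in ES and 10.1 (wild type) against 3.79 (knockout) in EB. The median log2 ratio of EB over ES was 1.78 in wild type and 1.14 in knockout. Over all 19023 genes these medians were -0.01 and 0.04, and in 249 genes of the comparison set they were 0.79 and 0.34.

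**Figure D4:**
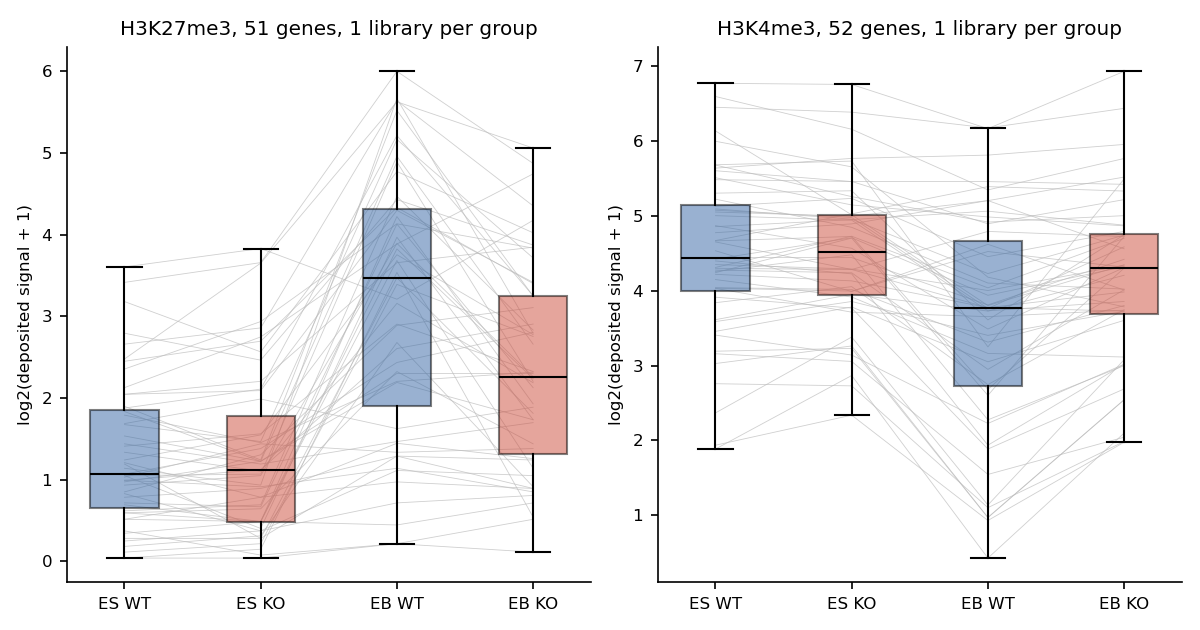
H3K27me3 (left, 51 genes) and H3K4me3 (right, 52 genes) as log2(deposited signal + 1) in the 4 groups, 1 library each, with grey lines for single genes, boxes for quartiles and medians and whiskers to the extremes. The median H3K27me3 box is highest in wild type EB and the median H3K4me3 box lowest there, with knockout EB between wild type EB and ES in both panels.

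H3K27me3 was at least 2-fold higher in EB than in ES for 35 of 51 genes in wild type (68.6%, against 7.75% of all genes) and for 28 of 51 in knockout (54.9%, against 2.74%). In the comparison set these shares were 43.8% and 13.7%. Of the 35 genes that gained the mark in wild type, 27 also gained it in knockout. These counts depend on the added constant of 1. With 0.1 added, 38 of 51 genes (74.5%) gained in wild type and 38 in knockout, against 12.1% and 7.83% of all genes. The comparison set then had 59.0% and 37.3%. Between the EB libraries, 18 of 51 genes (35.3%, against 4.82% of all genes) had at least 2-fold less H3K27me3 in knockout, and the median log2 ratio was -0.58, against -0.39 in the comparison set and 0.05 over all genes. In ES, the median log2 ratio of knockout over wild type was 0.07. With only loci under 10 kb, the EB difference between genotypes was larger, at -1.63 over 21 genes.

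The 4 genes of the LIF list had more H3K27me3 in EB than in ES in both genotypes. Socs3 went from 0.0800 in wild type ES to 9.48 in wild type EB, and from 0.160 in knockout ES to 5.74 in knockout EB. Its log2 ratios of 3.28 and 2.54 made its knockout gain the largest of the 51 genes. Klf4 went from 0.907 to 13.8 in wild type and from 1.07 to 3.79 in knockout, Bcl3 from 0.534 to 21.1 and from 0.614 to 6.11, and Gbx2 from 2.67 to 36.1 and from 3.31 to 8.51. All 4 gained at least 2-fold in each genotype, and all 4 ended lower in knockout EB than in wild type EB.

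The largest wild type gains were those of Ltbp4 (log2 ratio 4.53), Tcf15 (3.99), Bcl3 (3.85), Foxd3 (3.84), Icam1 (3.71) and Notum (3.62). Their knockout ratios were 1.86, 1.43, 2.14, 1.14, 1.44 and 2.01, each smaller than in wild type. Ltbp4 went from 1.20 to 49.8 in wild type, but from 0.907 to 5.92 in knockout. Foxd3 went from 1.07 to 28.6 and from 1.09 to 3.60. With 1 added to each value, a gain past 2-fold in wild type but not in knockout was seen in 8 genes. Among them were Epop, Etv4, Fblim1, Fzd5, Hsd17b14, Itpk1 and Nr0b1. Without the added 1, the knockout ratio of EB over ES was 4.25 for Epop, 4.00 for Hsd17b14, 3.67 for Nr0b1 and 3.00 for Fzd5. It was 2.05 for Fblim1, 1.996 for Itpk1 and 1.75 for Etv4, so this count depends on the added constant. Epop showed the widest gap, with 0.0267 in wild type ES and 10.6 in wild type EB, but 0.107 in knockout ES and 0.454 in knockout EB. Nr0b1 went from 0.133 to 5.40 in wild type and from 0.240 to 0.880 in knockout. Mras went the other way, from 3.36 to 13.8 in wild type and from 5.71 to 25.8 in knockout. Of the other 2 genes whose RNA was called lower in knockout EB, Gli1 had 13.2 (wild type) against 3.71 (knockout) in EB and Fblim1 6.48 against 4.00, so H3K27me3 was higher in knockout only for Mras among these 3.

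Low RNA did not always come with H3K27me3. With 1 added to the signal, 15 genes had no 2-fold gain in either genotype. They were Brca2, Calml4, D1Pas1, Dusp27, Gng3, Noct, Pcdhgc4, Pcyt1b, Prx, Rpl10l, Sdr39u1, Tet1, Tex19.1, Trib3 and Urah. Tex19.1 had 0.774 in wild type ES and 0.640 in wild type EB, and Rpl10l had 0.293 and 0.160. In knockout, Tex19.1 went from 0.293 to 0.747 and Rpl10l from 0.0534 to 0.427. Without the added 1, the knockout ratio of EB over ES was 8 for Rpl10l, 3.64 for Urah and 3 for Gng3. It was 2.55 for Tex19.1, 2.29 for Pcyt1b and under 2 for the other genes listed. Tet1 went from 1.71 to 1.76 in wild type, and from 1.28 to 2.24 in knockout. A median of 5.74% of the ES RNA level remained in the EB of wild type and 27.2% in that of knockout in these 15 genes, against 8.20% and 19.5% in the 27 that gained the mark in both genotypes. The rule capped both shares and the split rests on the added 1, so these medians support no difference between the classes. Genes with both a promoter sequence and an H3K27me3 value were sorted by CG ratio, again with 1 added to the signal. Of 22 with a CG ratio of 0.6 or more, 16 gained H3K27me3 in wild type. So did 3 of 4 with a ratio between 0.4 and 0.6 and 5 of 12 with a ratio under 0.4. The median log2 ratio was 2.77 in the first and 0.76 in the last group. Without the added 1, the CG-poor Gng3 and Urah and the CG-rich Trib3 also passed 2-fold in wild type. Exceptions in both directions included the CG-rich promoters of Rpl10l and Brca2, without a gain, and the CG-poor promoters of Itgb7 and Krt42, with one. Over the 51 genes, Spearman's rho between the share of RNA left and the H3K27me3 ratio was 0.03 in wild type and -0.32 in knockout. This is a description across genes that share the same libraries and whose RNA shares were capped by the rule.

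H3K4me3 was lower in EB than in ES, mostly in wild type. Its median over the 52 genes was 20.6 (wild type) against 22.0 (knockout) in ES and 12.6 (wild type) against 18.8 (knockout) in EB. It was at least 2-fold lower in EB than in ES for 24 of 52 genes in wild type (46.2%, against 5.51% of all genes) and for 6 of 52 in knockout (11.5%, against 0.283%). The median log2 ratios were -0.81 and -0.27, against -0.85 and -0.11 in the comparison set. The largest wild type losses were those of Tgm1 (-2.46), Hsd17b14 (-2.43), Tet1 (-2.33), Krt42 (-2.22), D1Pas1 (-2.06) and Laptm5 (-2.03). Tet1 went from 69.2 to 12.9 in wild type, but from 31.3 to 19.3 in knockout, so its knockout level was already lower in ES. Some genes with more H3K27me3 in wild type EB did not have less H3K4me3 there: Klf4 had 27.9 in wild type ES and 32.4 in wild type EB, Socs3 26.4 and 35.8, and Gbx2 22.1 and 23.6.

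Between the EB libraries, H3K4me3 was at least 2-fold higher in knockout for 11 of 52 genes (21.2%, against 4.24% of all genes), with a median log2 ratio of 0.48. The comparison set had higher values, 34.1% and 0.63. Across the 52 genes, Spearman's rho between the H3K4me3 ratio and the RNA difference between genotypes in EB was 0.65 (Pearson's r = 0.67). For H3K27me3 the corresponding rho was -0.05 over 51 genes. Both describe genes measured in the same libraries and chosen by these RNA values. They were not computed over other genes, so they support nothing beyond the chosen genes. The 5 genes with the highest RNA difference had H3K4me3 ratios of 1.67 (Rpl10l), 0.79 (Nr0b1), 2.24 (Hsd17b14), 1.94 (Tex19.1) and 2.12 (Sept1). Socs3 and Gbx2, whose RNA overlapped between genotypes, were at -0.64 and -0.61. Dusp27 had an H3K4me3 ratio of 1.62 and an RNA difference of -0.04.

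**Figure D5:**
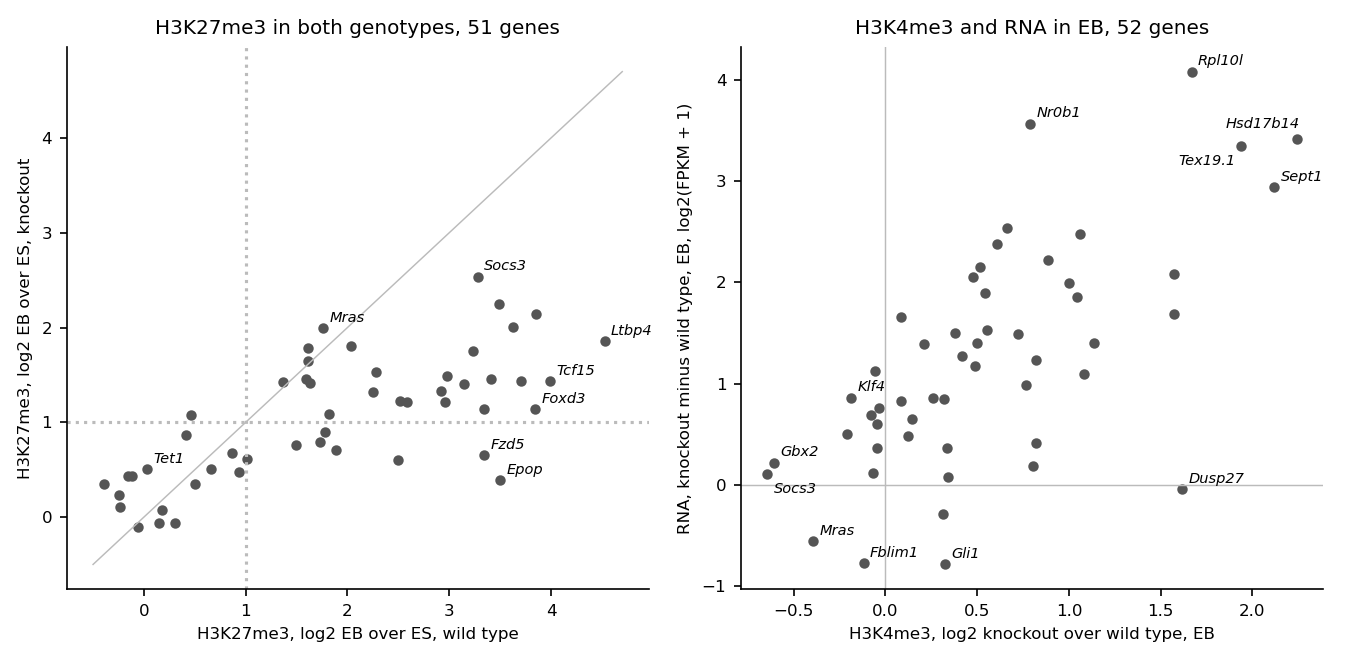
Left, H3K27me3 log2 ratio of EB over ES in wild type against knockout for 51 genes, with dotted lines at 2-fold and a line of equality: most genes with a wild type ratio above 2 lie under that line. Right, H3K4me3 log2 ratio against RNA difference of knockout and wild type EB for 52 genes, with Hsd17b14, Sept1 and Tex19.1 at the upper right and Mras at the lower left.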

How the data were processed

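RNA-seq values were FPKM per gene, deposited by the authors as 1 table with 2 libraries for each of the 4 groups. ChIP-seq values were a signal per gene in the authors' deposited tables, with 1 library per mark and group. The 4 input libraries were not analysed here. The submitters' processing notes name mm10, STAR 2.6.0a, Bowtie2, HTSeq, Cufflinks 2.2.1 and DESeq2, without the role of each. Read counts are not given and low FPKM values were only partly stepwise, so reads could not be recovered and depth is unknown.

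Of 53560 rows, 120 second entries of a symbol were left out, as were loci under 300 bp among the chosen genes. The 15428 genes that reached 1 FPKM in 2 or more of the 8 libraries were tested as log2(FPKM + 1), which understates differences of low genes, with limma 3.58.1 in R 4.3.3 (group means over all 8 libraries, empirical Bayes with a trend, 4 residual degrees of freedom and 7.05 after moderation, Benjamini-Hochberg adjustment over all genes, threshold 0.05). The scripts were tested on simulated data. Knockout was compared with wild type within EB and within ES. EB against ES and the interaction were not tested, because the choice of genes used them. The ChIP signal got no test. Its genes were matched by symbol and RefSeq synonyms, and since it rises with locus length it was not taken as a value per kilobase or per promoter. Promoters came from RefSeq (GRCm38.p6).

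The members and the gene lists were chosen with earlier results of these data known. Genes were named by a rule: the 6 with the least and the 6 with the most left in knockout EB, up to 8 called each way in EB, up to 5 of each pathway list, the 6 with the largest H3K27me3 and the 6 with the smallest H3K4me3 ratios in wild type, 4 on each side of each limit, and the 12 with the highest ES level. Other members were named to account for the rest, and 3 of the 55 genes, counted in all totals, are not reported by name here. Alternatives changed the pseudocount, filter, scaling, trend, libraries in the fit, replicate block, limits of the rule and the constant added to the ChIP signal, and left out each library in turn.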

Additional observations from a re-analysis of the deposited data

How the results depend on the processing

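The number of genes that met the rule was 32 with a knockout limit of 0.25 and 135 with a limit of 0.5, and ran from 50 to 67 when 1 library was left out, against 55. It was 72 after scaling to a common total and 82 after scaling to a common upper quartile. With an ES minimum of 5 FPKM it was 79, and with 20 FPKM it was 38. Genes called higher in knockout EB ran from 30 to 40 with 1 library left out and genes called lower from 0 to 3, the 0 without EB wild type replicate 2. Their median EB difference ran from 1.17 to 1.38 with 1 library left out and was 1.46 with a pseudocount of 0.1 and 1.49 after quantile normalization, against 1.24. In ES the median ran from -0.10 to 0.12. Scaling to a common total moved the median of all genes in EB from -0.06 to -0.25.

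Correlations of same-numbered deviations between groups ran from 0.068 to 0.311, the highest between wild type ES and knockout ES. No limit was set for them, so they cannot exclude a pairing by replicate number, and the main fit used none. With the replicate number as a block, 40 genes were higher and 3 lower in EB, and 1 was lower in ES.

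Of the 29 genes named for their RNA tests, 24 were called in EB and 16 of these kept the call under all 16 alternatives. Differences of the other sign were -0.076 for Etv4 and -0.081 for Socs3 with a common total. With 1 library left out, the difference ran from -0.12 to 0.355 for Etv4, from -0.025 to 0.460 for Gbx2 and from -0.26 to 0.479 for Socs3. The values below 0 were those without EB wild type replicate 1 (Etv4 and Socs3), EB wild type replicate 2 (Gbx2) and EB knockout replicate 1 (Socs3).

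Median H3K27me3 log2 ratios of EB over ES in wild type were 2.30 with 0.1 added, 1.62 after scaling to the same sum and 2.50 in loci under 10 kb, and in knockout 1.55 with 0.1 added. Knockout over wild type in EB was -0.69 with 0.1 added, -0.82 with at least 1 in both libraries and -1.63 in loci under 10 kb. Median H3K4me3 ratios of EB over ES in wild type were -0.95 after scaling to the same sum, -0.70 with at least 1 in both libraries and -0.41 in loci under 10 kb. In loci under 10 kb the knockout ratio was -0.13, and knockout over wild type in ES was 0.12. The cause of these shifts was not tested. The wild type EB H3K27me3 library had the fewest signal steps of the 4.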
